A study of Mus musculus with 6 samples.

Results

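The genes described here are 9 that write, maintain and remove DNA methylation: the methyltransferases Dnmt1, Dnmt3a and Dnmt3b, the methyltransferase-like factor Dnmt3l, the maintenance factor Uhrf1, the dioxygenases Tet1, Tet2 and Tet3, and the glycosylase Tdg. They were taken by gene symbol from 2 gene count tables of bulk RNA-seq, which together list 16279 genes. All 9 were listed in both tables and passed the filter on low counts. One table holds 3 libraries (S01, S02 and S03) of mouse embryonic stem cells (mESCs) and the other 3 libraries (S04, S05 and S06) of cardiac precursor cell cultures (CPCCs). Both cell types were male F1 cells of a C57BL/6J mother and a CAST/EiJ father. The mESCs were clones from 3 blastocysts, grown in serum medium with LIF and a pair of kinase inhibitors (2i). The CPCCs were made from those clones through embryoid bodies in serum medium with ascorbic acid. They were then expanded in serum medium with Egf and Fgf2. CPCCs are mixed cultures and not a sorted cell type, all cells share a single F1 genotype, and the columns do not say which CPCC library came from which mESC clone. The comparison asks how the DNA methylation machinery differed between the pluripotent cells and the cardiac lineage cultures made from them.

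DNA methylation in mammals sits mainly on cytosines of CpG pairs. Dnmt1 copies it onto the new strand after replication, guided by Uhrf1, which binds CpGs that carry the mark on one strand only. Dnmt3a and Dnmt3b place new marks, helped by Dnmt3l, which has no catalytic activity of its own. Tet enzymes oxidize methylcytosine, and Tdg cuts out the most oxidized forms so that base excision repair can restore a plain cytosine. Pluripotent cells are known for high levels of Tet1 and for low methylation when grown in 2i.

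Expression is given as CPM, the counts of a gene relative to the library total, scaled by edgeR's TMM factors, and each adjusted p is from edgeR's quasi-likelihood test over 12471 genes with Benjamini-Hochberg adjustment. The mESC libraries held 6442639 to 6907330 counts in all and the CPCC libraries 8468819 to 11436062, and 3 counts in a library equal between 0.298 and 0.463 CPM. The labels of the cells were checked on marker genes. All 8 mESC markers tested were lower in CPCCs, where their summed level was 2.88%, 4.04% and 4.96% of the mESC mean in S04, S05 and S06. Of 10 cardiac precursor markers, 4 could be tested and Tbx20 rose, 5 were listed in the CPCC table only and Tbx5 in the mESC table only. The cardiac factor Nkx2-5 was at 1.59, 0 and 0.917 CPM in S04, S05 and S06. Mef2c, likewise listed in CPCCs only, was at 19.3, 9.94 and 12.8 CPM there. The cardiac list summed to between 52.1 and 115.5 CPM in CPCCs against 7.26 to 11.9 CPM in mESCs. Mesenchymal genes summed to between 14030 and 21500 CPM in CPCCs against 97.9 to 132.5 CPM in mESCs, and neural genes to between 577.3 and 610.4 CPM against 43.7 to 47.8 CPM. Among endothelial genes, Pecam1 fell from a mean of 91.1 to 4.44 CPM, Tek was not called and 3 others were listed in CPCCs only, so that their sum was 14.8 to 29.3 CPM in CPCCs against 92.3 to 101.3 CPM. Endoderm genes summed to between 59.7 and 77.1 CPM against 4.56 to 8.34 CPM. The part that the mix of cell types had in the results below was not tested. In bulk samples, fewer cells of a type and less RNA per cell cannot be told apart.

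Of the 9 genes, 5 were lower in CPCCs (Uhrf1, Dnmt1, Dnmt3b, Tet1 and Tet2), 2 were higher (Dnmt3a and Tet3) and 2 passed the test in neither direction (Dnmt3l and Tdg). For comparison, 61.4% of all genes tested passed in either direction, 29.7% as lower and 31.7% as higher in CPCCs. The counts called in each list below are to be read against these same shares. The 6 libraries separated by cell type without overlap for 7 of the 9 genes, against 69.7% of all genes tested. The median log2 fold change, CPCC minus mESC, was -1.45 over the 9 genes and 0.03 over all genes tested.

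**Figure D1:**
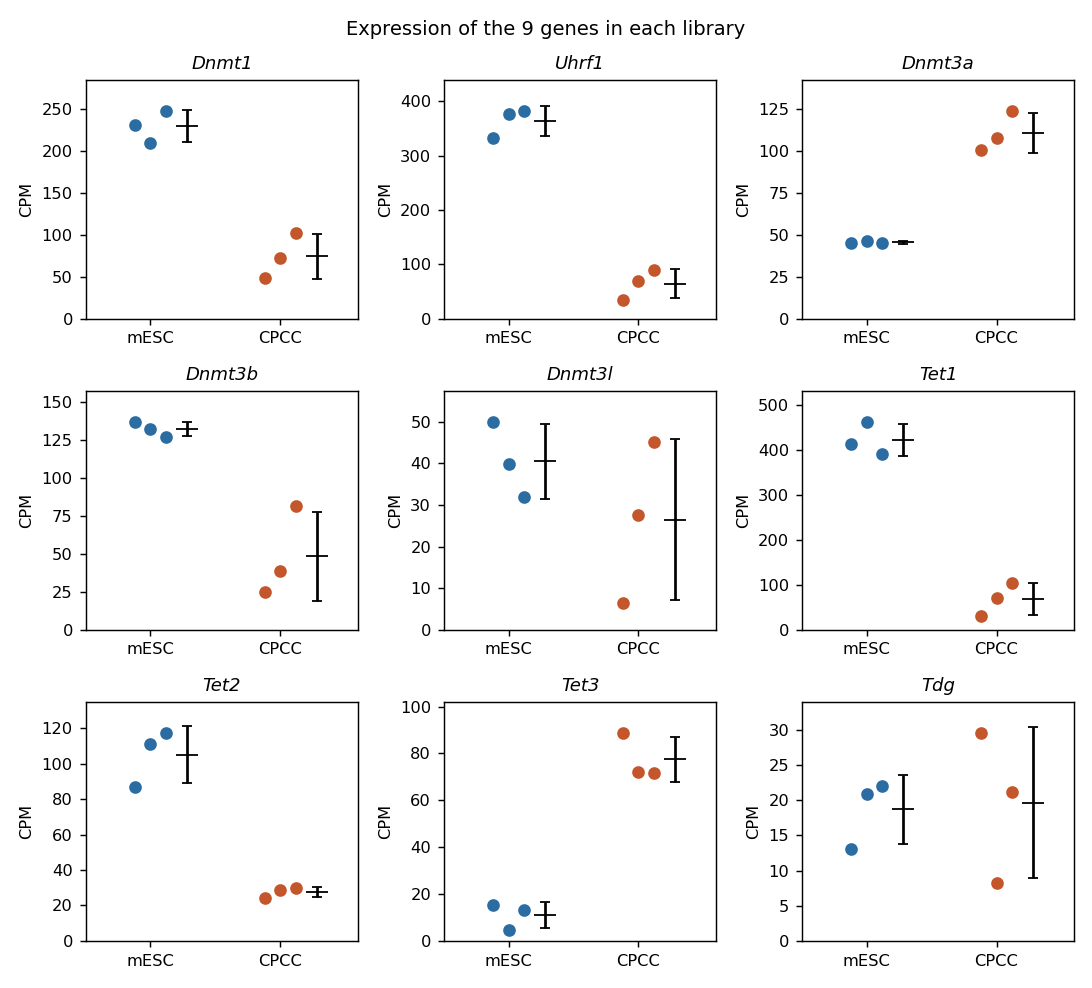
Level of each of the 9 genes in CPM (linear axis from 0), with 1 point per library for the 3 mESC and the 3 CPCC libraries and the mean ± SD in black beside them. The groups overlap for Dnmt3l and Tdg and are apart for the other 7 genes.

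The maintenance pair was lower in CPCCs. Uhrf1 (chromosome 17, 56303337 to 56323487, plus strand) was at 331.7, 376.0 and 382.3 CPM in the mESC libraries and at 34.8, 70.0 and 89.1 CPM in S04, S05 and S06. Its highest CPCC library was far below its lowest mESC library. The mean fell from 363.3 ± 27.6 to 64.6 ± 27.5 CPM (SD, n = 3 each), a 5.63-fold difference with a log2 fold change of -2.49 (SE 0.31, adjusted p = 0.000155).

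Dnmt1 (chromosome 9, 20907206 to 20959889, minus strand) was at 231.7, 209.8 and 248.3 CPM in mESCs and at 48.0, 72.8 and 102.5 CPM in CPCCs. Again no CPCC library reached the mESC range. The mean went from 229.9 ± 19.4 to 74.4 ± 27.3 CPM (SD, n = 3), which is 3.09-fold lower with a log2 fold change of -1.63 (SE 0.26, adjusted p = 0.000651). Uhrf1 therefore fell further than its partner in these libraries. The log2 ratio of Uhrf1 to Dnmt1 counts was 0.66 ± 0.17 in mESCs and -0.24 ± 0.21 in CPCCs (SD, n = 3), and the groups did not overlap. With 3 libraries against 3, the exact permutation test cannot go below p = 0.10, and it gave that value here (two-sided, Benjamini-Hochberg adjusted p = 0.14 over 7 ratios).

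Both maintenance genes have a RefSeq promoter window that holds letters of the E2F site, TTTCGCGC or TTTGGCGC, searched on both strands. E2F factors are the regulators of genes needed for DNA replication. The windows are the 250 bases before each annotated start, of which RefSeq (GRCm38.p6) gives 16 for the 9 genes, and the letters were in 2 of these 16 and in 0.654% of all 32851 windows. They were found once in each of the sequences below, printed 5′ to 3′ on the strand of the gene with the E2F letters in capitals, on the printed strand for Uhrf1 and on the other strand for Dnmt1. The Uhrf1 window lies at chr17:56304063-56304312 (plus strand) and touches no exon annotated in GENCODE vM21. The Dnmt1 letters lie inside an annotated first exon of a longer transcript (chromosome 9, 20952708 to 20952979), so only 30 bases around them are shown, at chr9:20952824-20952853 (minus strand).
Uhrf1: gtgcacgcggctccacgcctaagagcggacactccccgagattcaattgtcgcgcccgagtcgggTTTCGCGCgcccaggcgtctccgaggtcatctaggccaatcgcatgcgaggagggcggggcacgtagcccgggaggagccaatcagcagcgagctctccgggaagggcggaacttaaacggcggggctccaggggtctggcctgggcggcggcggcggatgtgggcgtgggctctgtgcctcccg
Dnmt1: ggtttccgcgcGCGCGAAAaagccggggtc
Among the S phase and proliferation genes described next, 2 of the 13 with a RefSeq window held the same letters. The E2F letters were singled out after 9 motifs had been searched. Of all 9748 tested genes with a window, 1.5% held them. These matches describe the sequence only and do not show that a factor binds. CpG pairs in the 16 windows ranged from 2, in the outermost Dnmt1 window, to 51 in the Tet2 window, which is more than in 99.9% of all windows, and the 3 Dnmt3l windows held 3, 4 and 5.

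The partners of maintenance methylation moved mostly with the pair. Of 8 genes in this list, 5 were lower and 1 was higher in CPCCs, with a median log2 fold change of -1.63. Hells, a remodeller needed for methylation of compact chromatin, had a log2 fold change of -2.74 (SE 0.38, adjusted p = 0.000272), and its cofactor Cdca7 one of -2.26. Lig1, the ligase that joins Okazaki fragments and binds Uhrf1, had one of -2.65. Pclaf, a Pcna-binding factor that also recruits Dnmt1, went the other way, from a mean of 36.7 to 137.4 CPM (log2 fold change 1.90, SE 0.37, adjusted p = 0.00199).

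Genes of S phase and proliferation were also lower. Of 17 in this list, which also holds genes of other cycle phases such as Ccnb1 and Top2a, 13 passed edgeR's test as lower, with a median log2 fold change of -1.74, and DESeq2 called the same 13. None was higher by edgeR, also at an unadjusted p under 0.05 (0 genes), or by DESeq2 (0 genes). The largest falls were in the replicative helicase, with log2 fold changes of -2.83 for Mcm3, -2.60 for Mcm5, -2.55 for Mcm2 and -2.36 for Mcm7. The summed level of the list was 8112, 8455 and 8286 CPM in the mESC libraries and 1523, 2993 and 3811 CPM in S04, S05 and S06. The order of the CPCC libraries in that sum is the order of Uhrf1 and Dnmt1 among them. How much of the fall of the maintenance pair goes with these genes was not tested.

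The de novo enzymes went in opposite directions. Dnmt3a (chromosome 12, 3806980 to 3914444, plus strand) was at 45.4, 46.6 and 44.9 CPM in mESCs and at 100.7, 107.8 and 124.1 CPM in CPCCs. Its mESC libraries differed by less than those of any other of the 9 genes relative to their mean, and every CPCC library lay above them. The mean rose from 45.7 ± 0.887 to 110.9 ± 12.01 CPM (SD, n = 3), 2.43-fold, with a log2 fold change of 1.28 (SE 0.17, adjusted p = 0.000188).

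Dnmt3b (chromosome 2, 153649449 to 153687731, plus strand) was at 137.0, 132.7 and 127.4 CPM in mESCs and at 25.0, 38.8 and 81.6 CPM in CPCCs. The groups were apart, but S06 stood at 61.6% of the mESC mean and S04 at 18.9%. The mean changed from 132.4 ± 4.82 to 48.5 ± 29.5 CPM (SD, n = 3), with a log2 fold change of -1.45 (SE 0.37, adjusted p = 0.00792). Without S06 the log2 fold change was -2.05.

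Dnmt3l (chromosome 10, 78042287 to 78063623, plus strand) was at 49.9, 39.7 and 31.9 CPM in mESCs and at 6.46, 27.7 and 45.0 CPM in CPCCs. The groups overlapped: S06 was above the mESC mean, at 111.2% of it, while S04 was at 16.0%. The log2 fold change was -0.62 (SE 0.54, adjusted p = 0.344), with a 95% confidence interval from -1.85 to 0.60. It was -0.14 without S04 and -1.25 without S06. Between the lowest and the highest CPCC library Dnmt3l differed 6.97-fold, more than any other of the 9 genes. Aire, on the other strand, overlaps the start of Dnmt3l, and it is not stated whether reads were counted by strand.

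The balance of the de novo enzymes shifted towards Dnmt3a in CPCCs. Without correction for gene length, Dnmt3b counts were 3.02, 2.85 and 2.84 times those of Dnmt3a in the mESC libraries and 0.249, 0.36 and 0.657 times in S04, S05 and S06. The mean log2 ratio went from 1.53 ± 0.05 to -1.36 ± 0.71 (SD, n = 3), a 7.42-fold change (exact two-sided permutation p = 0.10, the smallest possible here, adjusted p = 0.14 over 7 ratios). The log2 ratio of Dnmt3l to Dnmt3a was lower by -2.26 in CPCCs, also without overlap (exact p = 0.10, adjusted p = 0.14), and by -1.51 without S04. The ratio of Dnmt3l to Dnmt3b differed by 0.63 on the log2 scale with overlapping groups (exact p = 0.30, adjusted p = 0.30).

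**Figure D2:**
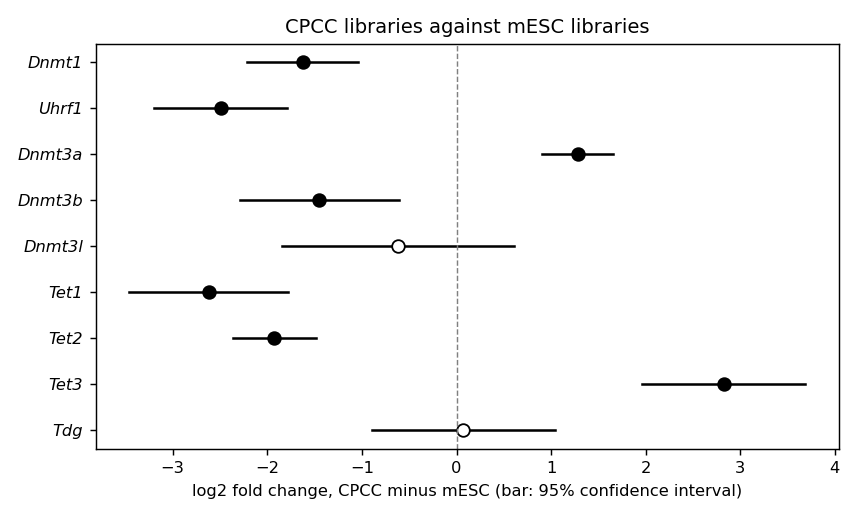
Log2 fold change of each gene (CPCC minus mESC, 3 libraries each) with its 95% confidence interval from edgeR. Filled points passed the test at an adjusted p under 0.05, and the open points, Dnmt3l (-0.62) and Tdg (0.07), did not.

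Among the Tet enzymes, Tet1 and Tet2 fell and Tet3 rose. Tet1 (chromosome 10, 62804570 to 62887325, minus strand), the main Tet enzyme of pluripotent cells, was at 412.5, 461.4 and 390.4 CPM in mESCs and at 31.4, 70.9 and 103.4 CPM in CPCCs. No CPCC library came near the mESC range. The mean fell from 421.4 ± 36.4 to 68.6 ± 36.0 CPM (SD, n = 3), 6.15-fold, with a log2 fold change of -2.62 (SE 0.37, adjusted p = 0.000312).

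Tet2 (chromosome 3, 133463677 to 133544391, minus strand), which lacks the DNA-binding CXXC domain of its relatives, was at 86.7, 111.2 and 117.2 CPM in mESCs and at 24.4, 29.0 and 29.6 CPM in CPCCs. Its CPCC libraries lay closer together than those of the other 4 genes that fell. The log2 fold change was -1.93 (SE 0.19, adjusted p = 4.53e-05), from 105.0 ± 16.2 to 27.6 ± 2.86 CPM (SD, n = 3).

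Tet3 (chromosome 6, 83362374 to 83456393, minus strand), known from the oocyte and from differentiated tissues, was at 15.1, 4.56 and 13.2 CPM in mESCs and at 88.7, 72.2 and 71.9 CPM in CPCCs. Every CPCC library was well above the mESC libraries, of which S02 was the lowest, with 31 counts. The mean rose from 10.9 ± 5.63 to 77.6 ± 9.62 CPM (SD, n = 3), and the fitted difference was 7.08-fold, with a log2 fold change of 2.82 (SE 0.38, adjusted p = 0.000233). This was the largest change among the 9 genes, but without S02 the log2 fold change of Tet3 was 2.46 against -2.55 for Tet1, and without S06 it was 2.88 against -3.04.

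Per kb of annotated exon, which allows genes to be compared within a library, Tet1 made up 76.6% to 81.5% of the reads of the 3 Tet genes in mESCs and 23.1% to 52.5% in CPCCs. Tet3 made up 0.744% to 2.77% in mESCs and 33.8% to 60.4% in CPCCs, where it had the largest share in S04 and Tet1 had it in S05 and S06. The share of Tet2 was 15.7% to 21.1% in mESCs and 13.8% to 16.4% in CPCCs. With the longest coding transcript as the length, an alternative added after the data were seen, the share of Tet3 in CPCCs was 38.8% to 62.7% and that of Tet1 16.9% to 42.3%, and Tet3 then had the largest share in S05 as well. Lengths may not match the exons that were counted. Tet1 is listed with an end at 62887325, while GENCODE ends it at 62908996, and the ends of Tet2 and Tet3 differ too. The log2 ratio of Tet1 to Tet3 counts went from 5.42 ± 1.04 to -0.33 ± 1.04 (SD, n = 3), a 53.7-fold change, and the difference of -5.75 was -5.15 without S02. That of Tet2 to Tet3 changed by -4.89, again without overlap (exact p = 0.10 and adjusted p = 0.14 for both). The log2 ratio of Tet1 to Tet2 differed by -0.86 with overlapping groups (exact p = 0.20, adjusted p = 0.233).

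**Figure D3:**
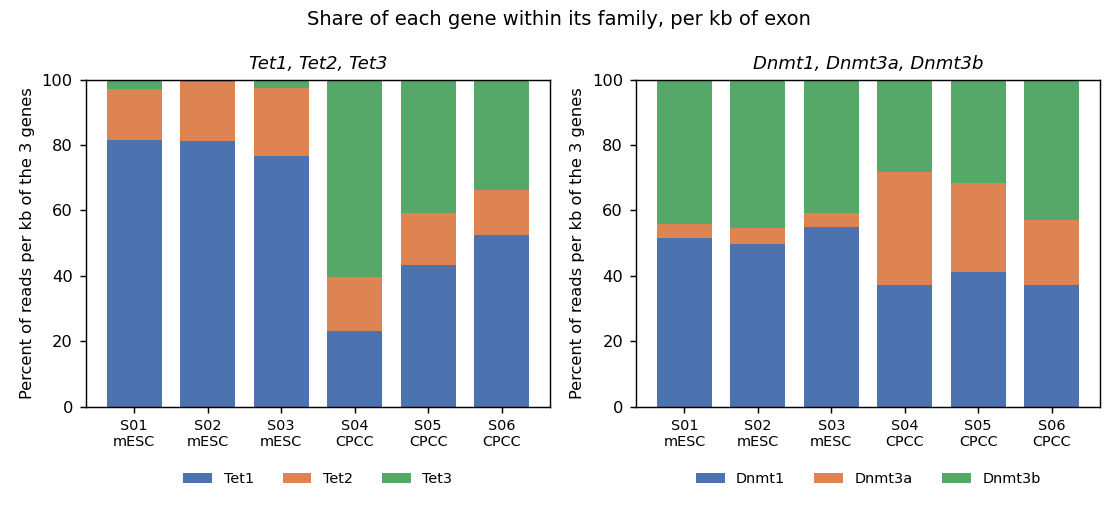
Percent of reads per kb of exon that each gene contributed within its family in each library, for the 3 Tet genes (left) and for Dnmt1, Dnmt3a and Dnmt3b (right). Tet3 grew from at most 2.77% in mESC libraries to at least 33.8% in CPCC libraries, and Dnmt3a from at most 4.90% to at least 19.98%.

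On the same scale per kb, the 3 catalytic methyltransferases divided their reads as follows. Dnmt1 took 49.7% to 54.9% in mESCs and 37.2% to 41.2% in CPCCs, and Dnmt3b 40.7% to 45.4% and 28.1% to 42.8%. Dnmt3a took 4.40% to 4.90% in mESCs and 19.98% to 34.6% in CPCCs, and it exceeded Dnmt3b in S04 and not in S05 and S06. With the longest coding transcript as the length, Dnmt3a took 6.07% to 6.76% in mESCs and 26.1% to 42.7% in CPCCs, where it then exceeded Dnmt3b in S05 too and Dnmt1 in S04. Over all 9 genes in mESCs, Uhrf1 had the highest level per kb (85.3 CPM per kb), followed by Dnmt1 (31.2), Tet1 (27.3), Dnmt3b (25.9), Dnmt3l (13.6), Tet2 (6.22), Tdg (3.48), Dnmt3a (2.74) and Tet3 (0.656). The neighbours Dnmt1 and Tet1, Tet1 and Dnmt3b, and Tdg and Dnmt3a overlapped between libraries. The CPCC levels were closer to each other, from 15.2 CPM per kb for Uhrf1 to 1.64 for Tet2, and only Dnmt3a and Tet3 among neighbours in that order did not overlap.

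Tdg (chromosome 10, 82629838 to 82650495, plus strand) did not differ detectably between the cell types. It was at 13.1, 20.9 and 22.1 CPM in mESCs and at 29.5, 8.25 and 21.1 CPM in CPCCs, so the highest and the lowest value were both in CPCC libraries. The log2 fold change was 0.07 (SE 0.43, adjusted p = 0.894), with a 95% confidence interval from -0.90 to 1.04, and it was -0.13 without S01 and -0.33 without S04.

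Another gene is listed at the position of Tdg in the count tables. It is Gm9855, given at chromosome 10, 82629842 to 82650278, on the same strand, while GENCODE vM21 places Gm9855 elsewhere on that chromosome (42054113 to 42055306, minus strand). Neither gene's counts were whole numbers. Their sums were whole within 0.001 in every library, with 128, 195 and 205 counts for mESCs, while CPCCs had 319, 207 and 240. Which of the 2 genes gave these reads was not tested. Tdg held 66.8%, 72.9% and 73.8% of the sum in mESCs and 93.1%, 33.1% and 76.5% in S04, S05 and S06. When the genes were added together, an alternative chosen after the data were seen, mESC levels were 19.8, 28.7 and 29.98 CPM, while CPCC levels were 31.7, 25.1 and 27.5 CPM. The log2 fold change of the sum was 0.10 (SE 0.23, adjusted p = 0.717) with a narrower 95% confidence interval, from -0.42 to 0.63.

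The genes that work after oxidation or deamination of the base were mixed. Of 17 base excision and demethylation partners tested, 4 were higher and 6 lower, against 31.7% and 29.7% of all genes tested. The median log2 fold change was -0.50. With genes missing from a table set at 3 counts, that median was -0.75. Gadd45g, a stress-induced adaptor linked to demethylation, was at 1.85, 1.47 and 1.17 CPM in mESCs and at 146.1, 139.8 and 115.9 CPM in CPCCs (log2 fold change 6.47, SE 0.25, adjusted p = 9.64e-07). Parp1, which senses strand breaks, fell from 394.2 to 75.1 CPM on average (log2 fold change -2.39), and the uracil glycosylase Ung from 61.1 to 9.68 CPM (-2.66). Apobec2, of the cytidine deaminase family, had a log2 fold change of -2.48 at a mean of 8.18 CPM in mESCs.

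The CPCC libraries differed from each other in a shared order for most of the 9 genes. S04 was the lowest and S06 the highest in 5 of the 5 genes that fell and in 7 of all 9, against 41.2% of all genes called lower and 24.9% of all genes tested. S04 stood at 20.9% of the mESC mean for Dnmt1, 9.58% for Uhrf1, 18.9% for Dnmt3b, 7.45% for Tet1 and 23.2% for Tet2. The values in S06 were 44.6%, 24.5%, 61.6%, 24.5% and 28.2%. The same order was seen in the sum of the S phase and proliferation genes (18.4%, 36.1% and 46.0% of the mESC mean in S04, S05 and S06) and in the sum of the mESC markers. Nanog, a pluripotency factor, was at 7.85, 25.6 and 42.5 CPM in S04, S05 and S06 against a mESC mean of 912.1 CPM. Sox1, a marker of early neural cells, was at 3.78, 23.4 and 50.9 CPM in the same libraries. In that order too were Pax6 (4.57, 14.2 and 18.2 CPM), Map2 (12.8, 27.4 and 35.8 CPM) and Pou3f2 (4.77, 17.3 and 32.0 CPM). Nes (336.1, 409.6 and 328.9 CPM) and Tubb3 (215.3, 118.5 and 133.1 CPM), the most abundant of the neural list, did not follow it. Nor did the neural list as a whole, which summed to 577.3, 610.4 and 598.8 CPM. The mesenchymal genes summed in the reverse order, to 21500, 20470 and 14030 CPM in S04, S05 and S06. Of all genes called higher, 41.2% were highest in S04 and lowest in S06. What set the order of the libraries was not tested. Every called gene of the 9 stayed called, in its direction, without S04 and without any other single library.

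**Figure D4:**
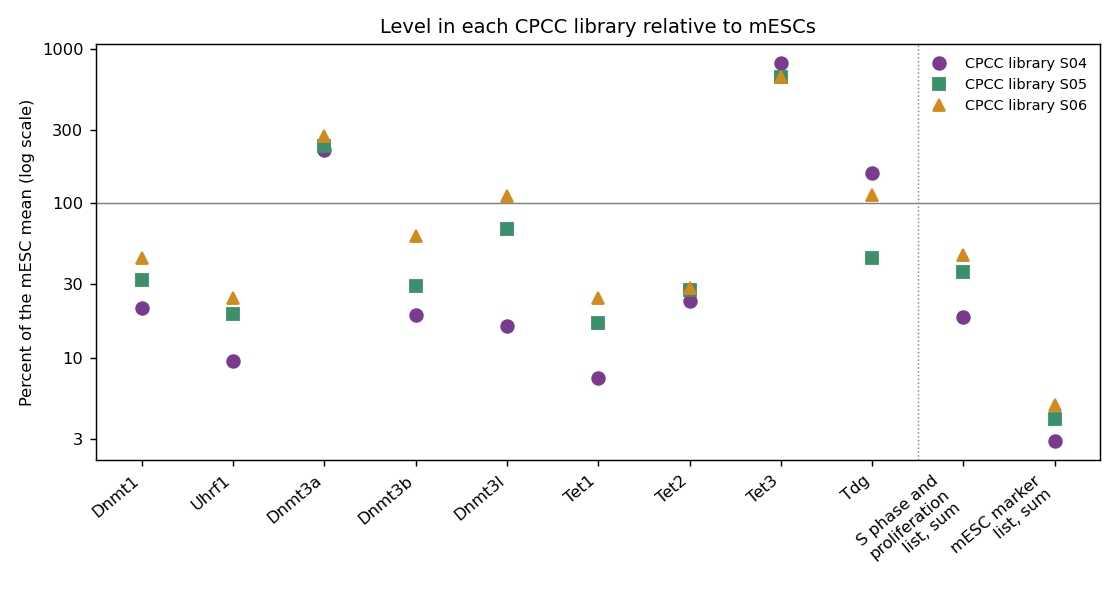
Level in each CPCC library as a percent of the mean of the 3 mESC libraries (log axis, 100 marks the mESC mean) for the 9 genes and, right of the dotted line, for the summed S phase and proliferation list and the summed mESC marker list. S04 is lowest and S06 highest for 7 of the 9 genes and for both lists, while all 3 libraries are above 100 for Dnmt3a and Tet3.

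Of the genes that supply the enzymes with their small molecules, most of those called were lower in CPCCs. TET enzymes need oxoglutarate, which isocitrate dehydrogenases make, and of the 8 genes tested in that list 5 were lower in CPCCs and none higher by edgeR, also at an unadjusted p under 0.05 (0 genes), or by DESeq2 (0 genes), with a median log2 fold change of -0.55 (-0.46 with genes missing from a table set at 3 counts). Idh2 had a log2 fold change of -1.04, Idh3a one of -0.79 and the Tet partner Ogt one of -0.61. Without S03, and also without S05, 3 of the 8 were called. Cxxc4, a regulator of Tet2, was listed in CPCCs only, at 17.1, 25.7 and 18.7 CPM, which is at least 45.8-fold above the level of 3 counts per library in mESCs. Slc23a1, a vitamin C transporter, was listed in both tables but did not pass the filter. The embryoid bodies behind the CPCCs were given ascorbic acid, which is vitamin C, and its part in these results was not tested.

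Of 9 genes that make and recycle the methyl donor S-adenosylmethionine, 7 were lower and 1 was higher, with a median log2 fold change of -0.83. Mthfd1, an enzyme of folate metabolism, fell from 215.1 to 56.9 CPM (log2 fold change -1.92, SE 0.18, adjusted p = 2.90e-05). Ahcy, which removes the product inhibitor S-adenosylhomocysteine, fell from 303.0 to 90.3 CPM (-1.75). Mtrr, which keeps methionine synthase active, had a log2 fold change of -1.27, and Ahcyl2, a relative of Ahcy, one of -0.96.

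A list of methyl-CpG-binding domain genes and zinc finger readers of methylated DNA leaned the other way. It was drawn up by family, and not every member is known to bind methylated CpGs. Of 10 tested, 5 were higher and 1 lower, with a median log2 fold change of 1.24. The zinc finger readers Zbtb4 (mean 2.72 to 43.5 CPM, log2 fold change 3.99, SE 0.33, adjusted p = 1.52e-05) and Zbtb33 (1.76 to 18.7 CPM, 3.41) rose most. Mbd5, of the methyl-CpG-binding domain family, rose from 3.53 to 25.6 CPM (2.85). The exception was Mbd4, a glycosylase for mismatches at CpGs, which fell from 45.6 to 8.47 CPM (-2.43).

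Factors that steer methylation were lower in 8 of 14 cases and higher in 2, with a median log2 fold change of -0.93. Prdm14, which represses the de novo enzymes in naive pluripotent cells, went from 144.4, 159.6 and 138.9 CPM in mESCs to 0, 1.82 and 2.75 CPM in CPCCs (log2 fold change -6.63, SE 0.66, adjusted p = 4.19e-05). Dppa3, which displaces Uhrf1 from chromatin, was at 65.5, 51.2 and 49.6 CPM in the mESC libraries and at 0.994, 1.46 and 3.09 CPM in S04, S05 and S06 (-4.91). Zfp42, itself a marker of pluripotent cells, had a log2 fold change of -5.55, and Trim28, the corepressor that protects methylation at imprinted regions, one of -2.07. The highest CPCC library was at 1.86% of the mESC mean for Prdm14 and at 5.58% for Dppa3, below the lowest CPCC library of each of the 9 genes.

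Genes that promoter methylation keeps off in somatic cells were lower too. Of 10 germline genes, 4 could be tested and all 4 were lower, 5 were listed in mESCs only and 1 in neither table. Dazl fell from a mean of 254.4 to 3.58 CPM (log2 fold change -6.16, SE 0.42, adjusted p = 5.79e-06) and Tex19.1 from 241.6 to 9.16 CPM (-4.73). Sycp3 and Ddx4 were low in both cell types, with mESC means of 6.61 and 7.96 CPM and log2 fold changes of -2.96 and -1.57. The median was -3.84 over the genes tested and -3.01 with genes missing from a table set at 3 counts. DNA methylation itself was not measured in these libraries.

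**Figure D5:**
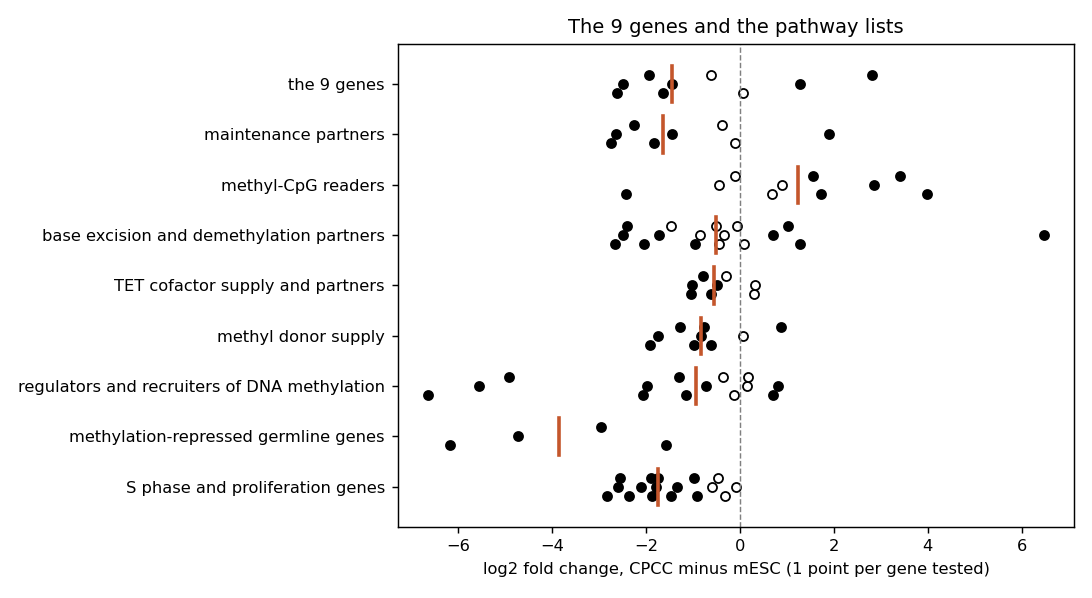
Log2 fold change (CPCC minus mESC) of every gene tested among the 9 genes and in each pathway list, 1 point per gene, filled where the adjusted p was under 0.05, with the median as a vertical line. The median is above 0 for the list labelled methyl-CpG readers (1.24), which was drawn up by family, and below 0 for the 9 genes and the other 7 lists.

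The genes whose pattern over the 6 libraries was most like that of each of the 9 were found by the root mean square distance of log2 CPM after centring each gene. They were Tinf2, Mad2l1 and Cdc7 for Dnmt1 (distances of 0.046 to 0.101), Pir, Pkmyt1 and Mcm2 for Uhrf1 (0.045 to 0.073), and Jarid2, Spc24 and Hat1 for Tet1 (0.086 to 0.098). For Tet2 they were Eif4ebp1, 9430038I01Rik and Ckmt1, for Dnmt3a Caml, Mex3a and Daglb, and for Dnmt3b Grik3, Arhgef39 and Rnaseh2a. Dnmt3l was nearest to Rnf208, Proser3 and Mxd3, Tet3 to Tnik, Stk39 and Thap2, and Tdg to Caap1, Tubg2 and Etfbkmt. Fewer genes lay within a distance of 0.3 of Dnmt3l (10), Tet3 (10) and Tdg (8) than of the other 6, which had 103 to 720 such genes. Among pairs of the 9, Uhrf1 and Tet1 were the nearest (0.167), followed by Dnmt1 and Dnmt3b (0.219), and Tet1 and Tet3 were the farthest apart (2.99). All these distances are set largely by the difference between the 2 cell types and are given over 6 libraries without a test.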

How the data were processed

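The authors prepared polyA-selected cDNA with the SMART-Seq kit. The deposited tables, 1 per cell type, hold estimated counts per gene without normalization and with both alleles together, of which 17.9% to 21.5% per library are fractional. Per the labels, STAR 2.7 and mm10 were used. The study names Partek Flow and a genome release for its single-cell counts. For these bulk counts, the counting tool, annotation and strand setting are not given in the sources used here. Each table lists genes with at least 10 counts over its 3 libraries. The cell type of a column comes from the name of its table, and column names give a library number but no replicate number.

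Counts were rounded. Of 13001 genes in both tables, filterByExpr removed 530, and 12471 were fitted with edgeR 4.0.16 in R 4.3.3 (TMM, quasi-likelihood test, adjusted p threshold 0.05). The fit was tested on simulated data. Ratios used log2 counts with a pseudocount of 1 and an exact permutation test in SciPy 1.17.1. Exon lengths are from GENCODE vM21. Alternatives were DESeq2 1.42.0, other scalings, filters and thresholds, and leaving out each library.

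The 9 genes and all lists were chosen with earlier results of these data known. Named from a list were up to 4 tested genes with the largest absolute log2 fold change past the threshold, of which 1 is not reported here. Cxxc4, Slc23a1, Tbx20, Tbx5, Nkx2-5, Nanog, Sox1, Nes, Tubb3, Pecam1, Tek, Ccnb1, Top2a and Gm9855 were named after their values were seen. So were Mef2c, Pax6, Map2 and Pou3f2. The level of 3 counts covers counting error only, and intervals of fold changes cover the spread between libraries. The labels give 3 samples per cell type and do not tie columns to cultures, so p-values measure the spread between these libraries.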

Additional observations from a re-analysis of the deposited data

How the results depend on the processing

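The 7 calls among the 9 genes were kept, with their directions, under all 16 alternatives, including DESeq2, no filter, at least 10 counts in every library, a 2-fold threshold and each library left out. Their log2 fold changes with a library left out ranged from -1.92 to -1.38 for Dnmt1, -2.79 to -2.18 for Uhrf1, 1.20 to 1.36 for Dnmt3a, -2.05 to -1.12 for Dnmt3b, -3.04 to -2.26 for Tet1, -2.05 to -1.83 for Tet2 and 2.46 to 3.12 for Tet3. Dnmt3l stayed not called (-1.25 to -0.14), as did Tdg, which ranged from -0.33 to 0.44 and was -0.13 without S01 and -0.33 without S04. Over all genes, a 2-fold threshold left 2430 lower in CPCCs. The same threshold left 2 called of the TET cofactor list and 3 of the methyl donor list. Medians moved in 4 lists under other settings. That of the base excision list was -0.65 and -0.75 with missing genes at 0 and 3 counts, -0.67 with library sizes over whole tables, and -0.80 to -0.33 with a library left out. That of the TET cofactor list was -0.36 and -0.46 with missing genes at 0 and 3 counts, -0.46 without the filter, and -0.58 to -0.37 with a library left out, when 3 to 6 of its genes were called. That of the germline list was -4.66 with at least 10 counts in every library, -5.42 and -3.01 with missing genes at 0 and 3 counts, and -4.11 to -3.43 with a library left out, and that of the regulators was -0.66 with at least 10 counts in every library. The methyl donor median ranged from -1.07 to -0.67 with a library left out. The cause of these moves was not tested. By Pearson correlation, at most 1 of the 3 genes most like each of the 9 was shared with those by distance. No paired analysis was possible because the columns carry no replicate numbers. Depth limits the low values: S02 held 31 counts of Tet3.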
